A study of Homo sapiens with 18 samples.

Results

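The unfolded protein response was followed through 10 named genes in SJSA-1 cells treated with Nutlin and PD0332991. The members were chosen by symbol: the stress sensors ERN1, ATF6 and EIF2AK3, the transcription factor XBP1, the degradation genes SEL1L, SYVN1, EDEM1 and HERPUD1, and the folding genes PDIA4 and CALR. Each has 1 row among the 23368 gene rows of the deposited tables, and all 10 passed the filter on low counts in each comparison. SJSA-1 is a human osteosarcoma cell line with amplified MDM2 and CDK4, and RNA was sequenced in 18 libraries, 3 for each of 6 groups.

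DMSO cells received the solvent alone. Nutlin cells received the MDM2 antagonist Nutlin, which releases p53, at 20 µM for 6 h according to the labels. PD30 cells received PD0332991 (Palbociclib), an inhibitor of CDK4 and CDK6, at 10 µM for 30 h. PD24 cells received it at 10 µM for 24 h, and in the study's scheme the drug was then absent for the last 6 h. N+PD30 and N+PD24 cells received the same 2 schedules with Nutlin during the last 6 h. The study calls the replicates biological triplicates and the labels give only their numbers and no batch, so the p-values measure the spread between these libraries. In bulk RNA of this kind, fewer cells expressing a gene and less RNA per cell cannot be told apart.

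The libraries held 12704845 to 40231041 counted reads (median 29608936), and the shallowest was replicate 1 of N+PD30. Behind each value of a member stood 160 to 68422 reads, the fewest for ERN1 and the most for CALR. The genes used to check the labels moved with the drugs: MDM2 was 2589 ± 79.7 CPM (counts per 1000000 counted reads of the library; SD, n = 3) in DMSO and 22914 ± 4589 CPM in Nutlin, and CCNB1 was 308 ± 10.2 CPM in DMSO and 12.2 ± 1.08 CPM in PD30. In rank correlation over all genes, each of the 18 libraries was nearest to a library of its own group. The 6 osteoblast lineage markers summed to 2833 to 6455 CPM per library. SP7, one of them, was under 0.1 CPM in every library outside N+PD24, while at least 1 N+PD24 library was not. The 4 blood cell markers summed to 2.54 to 15.03 CPM and the 3 endothelial markers to 1.85 to 15.4 CPM, the latter highest in N+PD24.

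The unfolded protein response adjusts the endoplasmic reticulum (ER) to its load of unfolded protein. Its sensors in the ER membrane are IRE1 (encoded by ERN1), ATF6 and PERK (encoded by EIF2AK3). IRE1 removes an intron from XBP1 mRNA so that an active transcription factor is made, ATF6 is cut to release a transcription factor, and PERK phosphorylates eIF2α, which lowers translation and favours that of ATF4. XBP1 and ATF6 raise genes for chaperones and for ER-associated degradation, the disposal of misfolded proteins. The counts analysed here are per gene, so they show the amount of XBP1 mRNA and not its splicing, and they show nothing of the cleavage or phosphorylation of the sensors.

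Known binding sequences of this response were looked for in the promoters to show the sequence through which it is known to act. RefSeq promoter windows on GRCh38.p14, of 250 bases before to 50 bases after a gene's start, covered all 10 members in 12 windows. The ER stress response element, searched on both strands as CCAAT and CCACG with 9 free bases between them, was in 27 of 35116 windows (0.0769%), among them those of XBP1 and CALR. The second such element, searched on both strands as ATTGG and CCACG with 1 free base between them, was in 19 windows (0.0541%), among them that of HERPUD1. The core TGACGTGG was in 256 windows (0.729%) and in no member's window. These are the 3 matches, read 5′ to 3′ on the gene's strand, with the fixed letters of the element in capitals. For CALR the element lies on the opposite strand. The positions are chr22:28800588-28800636 (minus strand) for XBP1, chr16:56932010-56932050 (plus strand) for HERPUD1 and chr19:12938369-12938417 (plus strand) for CALR.
XBP1: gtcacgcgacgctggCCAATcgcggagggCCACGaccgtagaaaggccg
HERPUD1: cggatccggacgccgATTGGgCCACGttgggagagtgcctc
CALR: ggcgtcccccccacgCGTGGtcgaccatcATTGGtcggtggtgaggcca

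The parts of these elements were common. CCAAT was in 34.6% of all windows and in 9 of the 12 member windows, and CCACG was in 38.1% of all windows and in 10 of the 12. EIF2AK3 and SYVN1 are shown as members that rose in PD30 against DMSO and in N+PD30 against Nutlin but held no full element in their window. ERN1 also rose in both without one, and ATF6, SEL1L and EDEM1 rose in PD30 against DMSO without one. PDIA4 held none and fell in both. Of the members with an element, XBP1 and HERPUD1 rose in both and CALR in neither (log2 fold changes -0.16 and -0.15). A relation between element and response was not tested. The 250 bases before the start are printed, with CCAAT and CCACG in capitals on either strand (ATTGG and CGTGG on the opposite one). They lie at chr2:88627465-88627714 (minus strand) for EIF2AK3, with 4 copies of CCAAT, and at chr11:65134520-65134769 (minus strand) for SYVN1, with 2 copies of CCACG and none of CCAAT. A match is a description of letters and not evidence of binding.
EIF2AK3: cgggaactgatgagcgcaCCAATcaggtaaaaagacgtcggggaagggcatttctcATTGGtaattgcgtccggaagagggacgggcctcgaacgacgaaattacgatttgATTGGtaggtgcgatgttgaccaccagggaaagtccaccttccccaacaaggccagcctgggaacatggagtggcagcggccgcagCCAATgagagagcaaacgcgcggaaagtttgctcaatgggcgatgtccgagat
SYVN1: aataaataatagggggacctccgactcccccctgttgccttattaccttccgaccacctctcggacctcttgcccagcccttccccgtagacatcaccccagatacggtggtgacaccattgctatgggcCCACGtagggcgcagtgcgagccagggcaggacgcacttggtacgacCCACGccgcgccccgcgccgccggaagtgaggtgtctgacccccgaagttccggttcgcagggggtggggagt

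On GRCh37, the build of the count tables, the members lie on separate chromosomes. The sensors are at chr17:62116440-62208179 (ERN1, minus strand), chr1:161736088-161947364 (ATF6, plus strand) and chr2:88856259-88991036 (EIF2AK3, minus strand), and XBP1 is at chr22:29190543-29196585 (minus strand). The degradation genes are at chr14:81937891-82000197 (SEL1L, minus strand), chr11:64889252-64902003 (SYVN1, minus strand), chr3:5229331-5261643 (EDEM1, plus strand) and chr16:56966054-56978776 (HERPUD1, plus strand). The folding genes are at chr7:148700154-148725754 (PDIA4, minus strand) and chr19:13049392-13055303 (CALR, plus strand). SYVN1 shares 130 exon bases with FAU on the same strand and 356 with MRPL49 on the opposite strand. The reads were counted with a setting for reverse-stranded libraries, and the library kit is not said to keep the strand, so the values of SYVN1 are uncertain where these genes overlap. Exons of ERN1, EIF2AK3, EDEM1 and CALR overlap long noncoding RNAs on the opposite strand that are not in the count table.

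Untreated cells carried far more mRNA of the folding genes than of the sensors. Per kilobase of the canonical transcript, CALR, a calcium-binding chaperone of glycoproteins, stood at 757 ± 39.7 CPM per kb in DMSO (SD, n = 3), and PDIA4, a protein disulfide isomerase, at 114 ± 9.24. XBP1 had 31.4 ± 3.33 CPM per kb and SYVN1 23.1 ± 1.55, followed by EDEM1 at 20.4 ± 3.33. SEL1L, ATF6 and HERPUD1 lay close together at 15.4 ± 0.619, 15.2 ± 0.251 and 14.8 ± 1.22 CPM per kb. EIF2AK3 had 6.83 ± 0.425 and ERN1 1.11 ± 0.0708 CPM per kb. Across the 6 group means of CPM, EIF2AK3 ranged the most, by 2.92-fold between N+PD30 and N+PD24, and HERPUD1, SYVN1, XBP1 and ERN1 followed with 2.47-, 2.09-, 1.99- and 1.93-fold. ATF6 and SEL1L ranged the least, by 1.43-fold each.

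**Figure D1:**
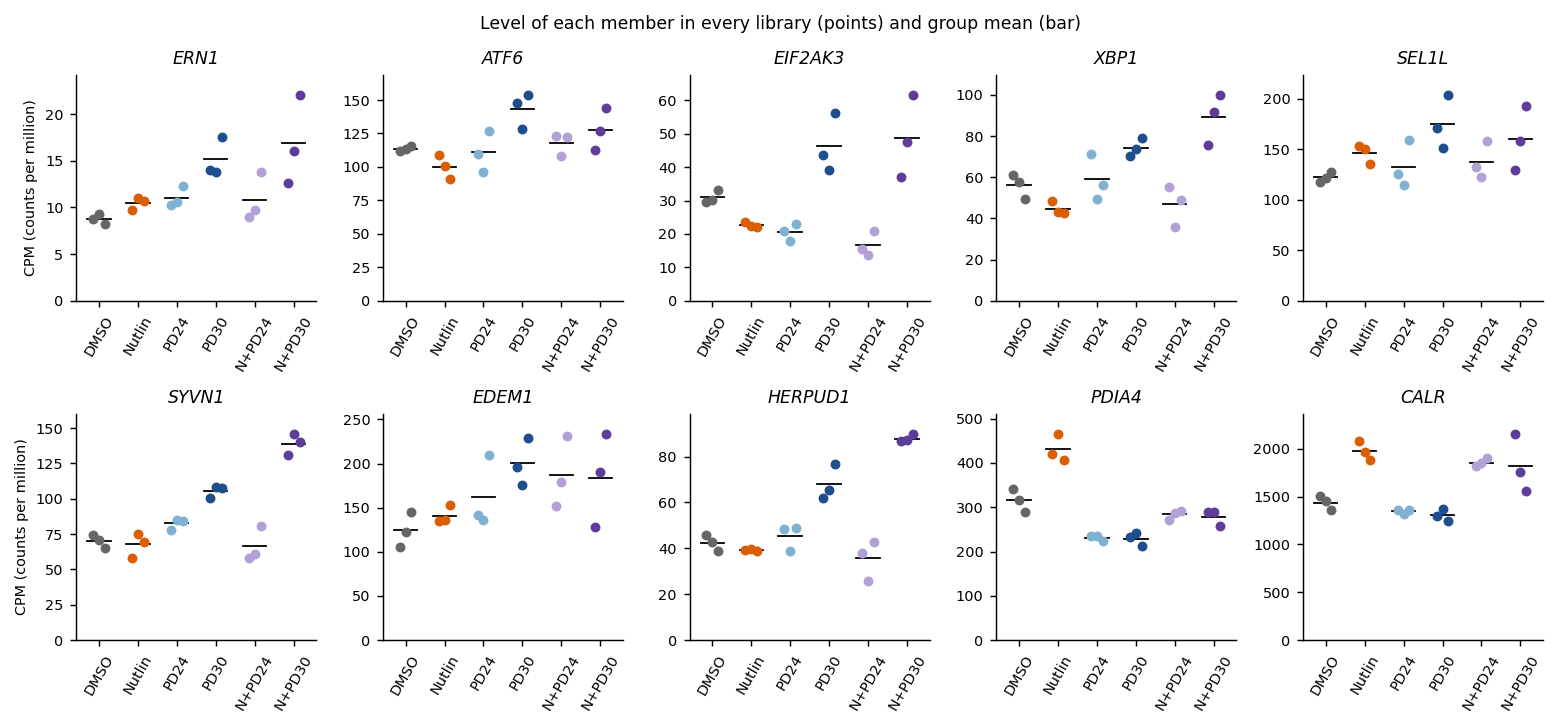
Level of each of the 10 members in CPM (vertical axes, starting at 0) in the 3 libraries of each group (points) with the group mean (bar). EIF2AK3, XBP1, SYVN1 and HERPUD1 have their highest means in PD30 and N+PD30, whereas PDIA4 and CALR have theirs in Nutlin.

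The first question was what continuous inhibition of CDK4 alone did to these genes. With PD0332991 for 30 h, 8 of the 10 members rose against DMSO, 1 fell and 1 did not pass the test. All 3 sensors, XBP1 and the 4 degradation genes were among the 8, whereas PDIA4 fell. Among all genes tested in this comparison, 22.9% were called higher and 25.4% lower (edgeR's quasi-likelihood test, Benjamini-Hochberg adjusted p under 0.05, the threshold for every call below). The median log2 fold change was 0.53 over the members and 0.0020 over all genes tested.

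ERN1 was at 8.79, 9.33 and 8.21 CPM in DMSO and at 14.1, 13.8 and 17.5 CPM in PD30. The groups did not overlap, and ERN1 rose by 0.77 ± 0.13 on the log2 scale (SE; edgeR adjusted p = 0.0012). ATF6 was at 112, 113 and 116 CPM in DMSO and at 148, 128 and 154 CPM in PD30, again without overlap, a log2 fold change of 0.32 ± 0.08 (edgeR adjusted p = 0.010). EIF2AK3 was at 29.6, 30.2 and 33.2 CPM in DMSO and at 43.6, 39.2 and 56.1 CPM in PD30. Every PD30 library was above every DMSO library, and the log2 fold change was 0.56 ± 0.13 (edgeR adjusted p = 0.0058).

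XBP1 mRNA was at 61.2, 57.6 and 49.6 CPM in DMSO and at 70.4, 73.9 and 78.9 CPM in PD30. It rose by 0.39 ± 0.10 on the log2 scale (edgeR adjusted p = 0.0097) with no overlap. HERPUD1, an ER membrane protein that organises the degradation complex, was at 45.8, 42.6 and 38.8 CPM in DMSO and at 62.0, 65.6 and 76.8 CPM in PD30. Its log2 fold change was 0.67 ± 0.11 (edgeR adjusted p = 0.00072). SYVN1 encodes HRD1, the ubiquitin ligase of that complex. Its 3 libraries had 74.6, 71.0 and 65.3 CPM in DMSO and 100.5, 109 and 108 CPM in PD30, which gave a rise of 0.57 ± 0.08 on the log2 scale (edgeR adjusted p = 0.00045).

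SEL1L, the partner that stabilises HRD1, went from 118 to 127 CPM in DMSO to 151 to 203 CPM in PD30, a log2 fold change of 0.50 ± 0.10 (edgeR adjusted p = 0.0034). EDEM1, a mannosidase-like protein that hands misfolded glycoproteins to degradation, went from 105 to 145 CPM to 176 to 229 CPM, a log2 fold change of 0.67 ± 0.13 (edgeR adjusted p = 0.0022). PDIA4 moved the other way, from 340, 317 and 289 CPM in DMSO to 232, 242 and 212 CPM in PD30. The groups did not overlap and PDIA4 fell by 0.48 ± 0.09 on the log2 scale (edgeR adjusted p = 0.0019). The CALR groups overlapped, with 1357 to 1505 CPM in DMSO and 1246 to 1367 CPM in PD30 and a log2 fold change of -0.16 ± 0.08 (edgeR adjusted p = 0.12). The share of all genes whose groups did not overlap was not counted in any comparison. Statements on overlap, here and below, therefore describe single genes and do not set the members apart. No member changed by more than 1 on the log2 scale, and the count of 9 calls was the same without any 1 of the 6 libraries.

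**Figure D2:**
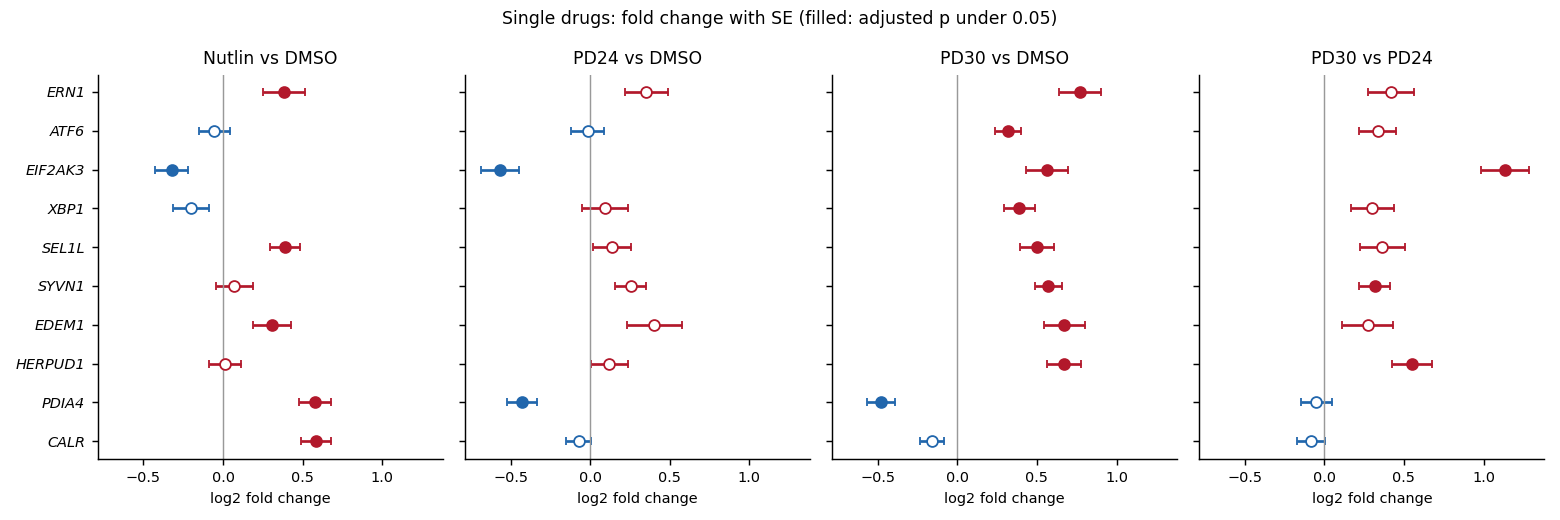
Log2 fold change of each member (horizontal axes) with its standard error in 4 comparisons of single drugs, filled where the adjusted p was under 0.05. In PD30 against DMSO 8 members lie to the right of 0 with filled points and PDIA4 to the left, while in PD24 against DMSO only EIF2AK3 and PDIA4 are filled, both to the left.

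PD24 asked what remained when the inhibitor was removed for the last 6 h. Against DMSO, no member was called higher and 2 were called lower, EIF2AK3 and PDIA4, where 17.5% of all genes tested were called higher and 20.8% lower. This comparison shares its DMSO libraries with that of PD30, so the values of both stand side by side and are not independent. EIF2AK3 was at 20.9, 17.8 and 23.0 CPM in PD24, below all 3 DMSO libraries, and fell by 0.57 ± 0.12 on the log2 scale (edgeR adjusted p = 0.0056). PDIA4 was at 235, 234 and 224 CPM and fell by 0.43 ± 0.09 (edgeR adjusted p = 0.0072). ERN1 and SYVN1 did not overlap with DMSO either, but their log2 fold changes of 0.35 ± 0.13 and 0.26 ± 0.10 did not pass the test (edgeR adjusted p = 0.064 and 0.066). The other 6 members had log2 fold changes from -0.07 to 0.40 and overlapping groups. With the replicate numbers as a block in the fit, EDEM1 was called higher as well (log2 fold change 0.39, edgeR adjusted p = 0.0092). Same-numbered libraries of these groups did not meet the criterion for pairing.

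A direct comparison of PD30 with PD24 gave the difference between continuous and interrupted inhibition. EIF2AK3, HERPUD1 and SYVN1 were higher in PD30 and no member was lower, where 12.2% of all genes were called higher and 12.9% lower. EIF2AK3 differed the most, by 1.13 ± 0.15 on the log2 scale or 2.19-fold (edgeR adjusted p = 0.0012), which made it the sensor that was below DMSO in PD24 and above it in PD30. HERPUD1 was at 48.6, 38.8 and 48.8 CPM in PD24, all below the PD30 libraries, and its log2 fold change was 0.55 ± 0.12 (edgeR adjusted p = 0.012). SYVN1 was at 78.2, 85.0 and 84.6 CPM in PD24 and differed by 0.32 ± 0.10 (edgeR adjusted p = 0.040).

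Same-numbered libraries of PD30 and PD24 deviated together, so the numbers were also used as a block. With the replicate block, 7 members were higher in PD30: ERN1, ATF6, SEL1L and EDEM1 joined the other 3, with edgeR adjusted p-values of 0.017, 0.0064, 0.0037 and 0.022 in the blocked fit. The spread that the block took up is visible in EDEM1, which had 142, 136 and 209 CPM in PD24 and 196, 176 and 229 CPM in PD30. Within each replicate number PD30 was the higher of the pair, while the groups overlapped. PDIA4 and CALR showed log2 fold changes of -0.05 ± 0.10 and -0.08 ± 0.09 and passed the test in neither fit. In the unblocked fit, leaving out 1 library gave 2 to 5 calls, with 5 without replicate 3 of PD24. The SYVN1 call was kept without replicate 2 of PD24 and lost without each of the other 5 libraries (edgeR adjusted p = 0.064 to 0.13), whereas EIF2AK3 and HERPUD1 stayed called throughout.

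With Nutlin alone 6 of the 10 members were called, where 8614 of the 15766 genes tested were called, so this total does not set the members apart. Of the 10, 5 rose against DMSO (CALR, PDIA4, SEL1L, ERN1 and EDEM1), 1 fell (EIF2AK3) and 4 did not pass the test. Nutlin changed a large part of the transcriptome in this comparison, with 26.6% of all genes tested called higher and 28.0% lower, and the median log2 fold change was 0.19 over the members and 0.028 over all genes. The folding genes had the largest changes of the 10. CALR was at 1505, 1455 and 1357 CPM in DMSO and at 2079.8, 1965 and 1880.1 CPM in Nutlin, and rose by 0.58 ± 0.09 on the log2 scale (edgeR adjusted p = 0.00049).

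PDIA4 was at 421, 465 and 407 CPM in Nutlin, above all DMSO libraries, with a log2 fold change of 0.58 ± 0.10 (edgeR adjusted p = 0.0009). SEL1L was at 153, 151 and 135 CPM in Nutlin and rose by 0.39 ± 0.09 (edgeR adjusted p = 0.0058). EIF2AK3 was at 23.6, 22.5 and 22.1 CPM, below all DMSO libraries, and fell by 0.32 ± 0.10 (edgeR adjusted p = 0.024). ERN1 (log2 fold change 0.38 ± 0.13, edgeR adjusted p = 0.031) and EDEM1 (0.31 ± 0.12, edgeR adjusted p = 0.049) were close to the threshold, and the EDEM1 groups overlapped.

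XBP1 was lower in all 3 Nutlin libraries (48.4, 43.2 and 42.5 CPM) than in any DMSO library, but its log2 fold change of -0.20 ± 0.11 did not pass the test (edgeR adjusted p = 0.15). The fold changes were computed after TMM, a scaling by the bulk of the genes, and scaling by total reads alone moved the median of all genes from 0.028 to -0.097, the share of calls that were higher from 48.7% to 36.7%, and XBP1 to -0.33 (edgeR adjusted p = 0.028). ERN1, at 0.26 (edgeR adjusted p = 0.12), and EDEM1, at 0.18 (edgeR adjusted p = 0.23), lost their calls under total scaling. On that scale HERPUD1 and SYVN1, which had log2 fold changes of 0.01 ± 0.10 and 0.07 ± 0.11 here, lay below 0. Only SEL1L, PDIA4 and CALR stayed called without each library in turn, and 3 calls were left without replicate 2 of DMSO, replicate 2 of Nutlin or replicate 3 of Nutlin.

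The combinations asked how PD0332991 altered these genes in cells treated with Nutlin. In N+PD30 against Nutlin, 5 members rose (HERPUD1, EIF2AK3, SYVN1, XBP1 and ERN1) and PDIA4 fell, where 24.3% of all genes tested were called higher and 24.7% lower. HERPUD1 was at 39.1, 39.8 and 38.7 CPM in Nutlin and at 86.6, 87.2 and 89.7 CPM in N+PD30. It rose by 1.12 ± 0.11 on the log2 scale, or 2.18-fold (edgeR adjusted p = 2.2e-05), with little spread in either group. SYVN1 was at 58.4, 75.3 and 69.2 CPM in Nutlin and at 131, 146 and 140.0 CPM in N+PD30. It rose by 1.00 ± 0.13 on the log2 scale (edgeR adjusted p = 0.00013).

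XBP1 was at 75.6, 92.0 and 99.9 CPM in N+PD30, well above its Nutlin libraries, and rose by 0.95 ± 0.13 (edgeR adjusted p = 0.00019). EIF2AK3 was at 37.0, 47.7 and 61.6 CPM in N+PD30 and rose by 1.06 ± 0.16, or 2.08-fold (edgeR adjusted p = 0.0004). ERN1 was at 9.77, 11.0 and 10.7 CPM in Nutlin and at 12.6, 16.1 and 22.0 CPM in N+PD30. Its log2 fold change was 0.65 ± 0.19 (edgeR adjusted p = 0.015). The groups of these members did not overlap, although the N+PD30 libraries spread widely for EIF2AK3 and ERN1, and ERN1 lost its call without replicate 3 of N+PD30 (edgeR adjusted p = 0.052). Replicate 1 of N+PD30, the shallowest library, was the lowest of its group for 8 of the 10 members and the highest for 2, CALR and PDIA4. Replicate 3 was the highest of its group for 7 members in PD24, PD30 and N+PD30 and for 8 in N+PD24, but for 4 in DMSO and 1 in Nutlin. The cause was not tested.

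PDIA4 was at 289.6, 289 and 258 CPM in N+PD30, below all Nutlin libraries, and fell by 0.67 ± 0.13 on the log2 scale (edgeR adjusted p = 0.0015). CALR had overlapping groups and a log2 fold change of -0.15 ± 0.15 (edgeR adjusted p = 0.45). SEL1L and EDEM1 overlapped as well, with log2 fold changes of 0.09 ± 0.14 and 0.34 ± 0.17. ATF6 was at 109, 101 and 91.0 CPM in Nutlin and at 112, 127 and 144 CPM in N+PD30, and its log2 fold change of 0.31 ± 0.13 did not pass the test (edgeR adjusted p = 0.071), but 0.35 did under total scaling (edgeR adjusted p = 0.048).

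The effect of Nutlin in cells under continuous inhibition was read from N+PD30 against PD30. Here 4 members rose (CALR, SYVN1, HERPUD1 and PDIA4) and none fell, where 8.84% of all genes tested were called higher and 5.64% lower. CALR was at 1298, 1367 and 1246 CPM in PD30 and at 2152, 1759.9 and 1562 CPM in N+PD30, and its log2 fold change of 0.58 ± 0.14 (edgeR adjusted p = 0.031) stood beside 0.58 ± 0.09 without the inhibitor. SYVN1 differed by 0.49 ± 0.09 (edgeR adjusted p = 0.013), HERPUD1 by 0.46 ± 0.11 (edgeR adjusted p = 0.026) and PDIA4 by 0.38 ± 0.11 (edgeR adjusted p = 0.047), each without overlap. The sensors had log2 fold changes of -0.07 to 0.25 with overlapping groups.

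These calls were not kept in every fit that left out 1 library. No member was called without replicate 1 of PD30 or without replicate 2 of N+PD30, 1 was called without replicate 2 of PD30 and 2 without replicate 3 of PD30. Over all genes, calls went from 2183 to 583 without replicate 1 of PD30 and to 625 without replicate 2 of N+PD30. The log2 fold changes of the 4 members stayed positive in all these fits, from 0.35 for PDIA4 to 0.71 for CALR. Same-numbered libraries of both groups met the criterion for pairing. Replicate 1 of N+PD30, however, correlated more with replicate 2 of PD30 (0.4535) than with replicate 1 (0.193), so the pairing is uncertain. With the replicate block XBP1 joined the 4 (log2 fold change 0.35, edgeR adjusted p = 0.020 in the blocked fit, 0.064 without it). Scaling by total reads left 2 calls, SYVN1 and CALR, and the share of all calls that were higher went from 61.1% to 43.8%.

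Whether Nutlin acted differently with the inhibitor present was tested by the interaction of Nutlin with PD30, the difference between the log2 fold changes with and without PD0332991. XBP1, HERPUD1 and SYVN1 had positive interactions, where 12.8% of all genes tested were called with a positive and 7.03% with a negative one. The median interaction was 0.040 over the 10 members and 0.064 over all genes tested, so the members as a set did not stand above the other genes. The XBP1 response to Nutlin was -0.20 ± 0.11 without and 0.35 ± 0.11 with the inhibitor, an interaction of 0.61 ± 0.16 (edgeR adjusted p = 0.020). For HERPUD1 the responses were 0.01 ± 0.10 and 0.46 ± 0.11, an interaction of 0.49 ± 0.15 (edgeR adjusted p = 0.032). For SYVN1 they were 0.07 ± 0.11 and 0.49 ± 0.09, an interaction of 0.47 ± 0.15 (edgeR adjusted p = 0.044). Each response came from a fit of 2 groups and the interaction from 1 fit of 4 groups, each scaled on its own. The responses printed therefore do not subtract exactly to the interactions.

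EIF2AK3 had an interaction of 0.54 ± 0.22 that did not pass the test (edgeR adjusted p = 0.11). CALR, PDIA4, ERN1 and ATF6 had interactions of -0.14 to 0.05, and SEL1L and EDEM1 of -0.37 ± 0.19 and -0.29 ± 0.24. The 3 calls were not kept in every fit that left out 1 library. None remained without replicate 1 of DMSO, replicate 2 of DMSO, replicate 1 of PD30 or replicate 2 of N+PD30, and 1 remained without replicate 3 of Nutlin or replicate 2 of PD30. In these fits the interaction stayed positive, at 0.54 to 0.70 for XBP1, 0.42 to 0.60 for HERPUD1 and 0.37 to 0.55 for SYVN1. Calls over all genes went from 3193 to 2264 without replicate 1 of PD30. With all groups deposited as counts in 1 fit, no member was called. In that fit the median interaction over all genes was -0.0091, and the share of calls that were positive was 54.9% instead of 64.5%.

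**Figure D3:**
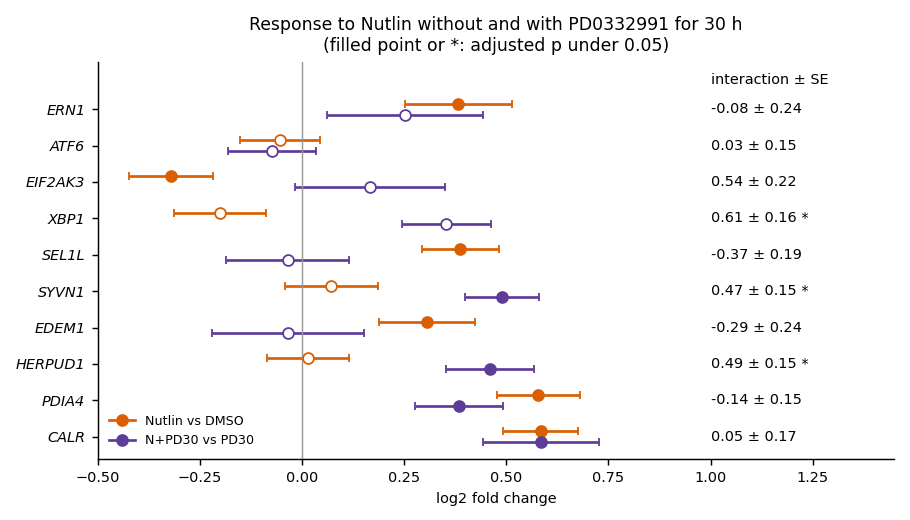
Log2 fold change of each member (horizontal axis) with its standard error for Nutlin against DMSO (orange) and N+PD30 against PD30 (purple), with the interaction and its standard error at the right and an asterisk where its adjusted p was under 0.05. For XBP1, SYVN1 and HERPUD1 the purple points lie to the right of the orange ones, and for CALR they coincide at 0.58.

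When the inhibitor was removed as Nutlin was added, 2 of the 10 members differed from Nutlin alone. These comparisons used limma on log2 values with 1 added, because the values of N+PD24 were deposited after normalization. In N+PD24 against Nutlin, EDEM1 rose and PDIA4 fell, where 17.0% of all genes were called higher and 17.2% lower. PDIA4 was at 272, 287 and 292 CPM in N+PD24, below all Nutlin libraries, and fell by 0.53 ± 0.10 on the log2 scale (limma adjusted p = 0.0036). EDEM1 was at 152, 179.6 and 231 CPM in N+PD24 and at 135, 136 and 153 CPM in Nutlin. Its groups overlapped, and its log2 fold change was 0.46 ± 0.13 (limma adjusted p = 0.023).

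HERPUD1 was at 38.0, 25.8 and 43.0 CPM in N+PD24, which overlapped with Nutlin, and SYVN1 at 58.2, 60.9 and 80.6 CPM. Their log2 fold changes of -0.10 ± 0.17 and 0.04 ± 0.14 and that of XBP1, 0.12 ± 0.16, did not pass the test. Same-numbered libraries deviated together, and with the replicate block 4 members were called, ATF6 higher (limma adjusted p = 0.0040) and EIF2AK3 lower (limma adjusted p = 0.0087) beside EDEM1 and PDIA4. EDEM1 lost its call under scaling by total reads (limma adjusted p = 0.070) and without replicate 1 of Nutlin, replicate 2 of Nutlin or replicate 2 of N+PD24, each of which left 1 call.

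In N+PD24 against PD24, the 2 folding genes rose and no member fell, where 16.9% of all genes were called higher and 20.1% lower. CALR was at 1358, 1322 and 1362 CPM in PD24 and at 1817, 1852 and 1900.2 CPM in N+PD24, a log2 fold change of 0.60 ± 0.11 (limma adjusted p = 0.0019). PDIA4 rose by 0.44 ± 0.10 (limma adjusted p = 0.0072). The other 8 members had overlapping groups and log2 fold changes from -0.23 to 0.36, and EDEM1 was called in addition with the replicate block (limma adjusted p = 0.0057). Scaling by total reads moved the median of all genes from 0.030 to -0.087 and the share of calls that were higher from 45.8% to 30.8%, while CALR and PDIA4 stayed called at 0.46 and 0.30.

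The interaction of Nutlin with PD24 was called for none of the 10 members by limma, and 0 members had an unadjusted p under 0.05. The members' interactions ran from -0.25 to 0.30, and edgeR's test on the recovered reads called 0 as well. Among all genes tested, 1.00% had a positive and 0.755% a negative interaction. The responses of CALR and PDIA4 to Nutlin were thus measured in 3 settings: alone (0.58 and 0.58), under continuous inhibition (0.58 and 0.38) and after removal of the inhibitor (0.60 and 0.44). The comparisons use different controls, and neither gene passed the test of a difference between the responses in either interaction.

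The largest log2 fold change of any member in the 11 comparisons was between the 2 combinations. In N+PD30 against N+PD24, EIF2AK3, HERPUD1, SYVN1 and XBP1 were higher and no member was lower, where 15.8% of all genes were called higher and 16.3% lower. EIF2AK3 was at 15.4, 13.8 and 20.9 CPM in N+PD24 and differed by 1.37 ± 0.19 on the log2 scale, or 2.59-fold (limma adjusted p = 0.00093). HERPUD1 differed by 1.20 ± 0.17, or 2.30-fold (limma adjusted p = 0.001). SYVN1 differed by 0.95 ± 0.13 (limma adjusted p = 0.00088), and XBP1, at 55.5, 36.0 and 49.0 CPM in N+PD24, by 0.82 ± 0.17 (limma adjusted p = 0.0058). In each of the 4, every N+PD30 library lay above every N+PD24 library.

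ERN1 was at 8.93, 9.75 and 13.8 CPM in N+PD24, overlapped with N+PD30 and did not pass the test (log2 fold change 0.48 ± 0.21, limma adjusted p = 0.10). ATF6, SEL1L, EDEM1, PDIA4 and CALR had log2 fold changes of -0.16 to 0.10. Scaling by total reads moved the share of all calls that were higher from 49.2% to 61.7% and left the 4 members called, from 0.93 for XBP1 to 1.48 for EIF2AK3.

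**Figure D4:**
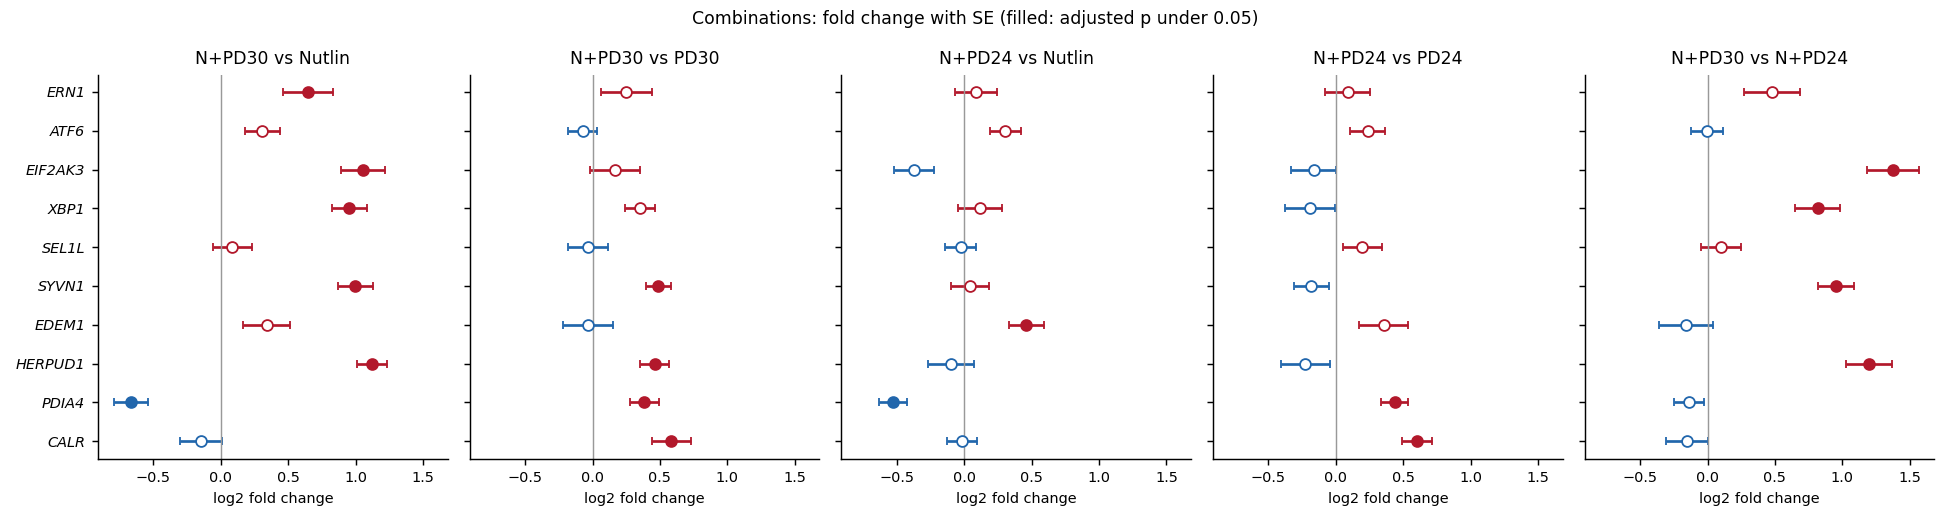
Log2 fold change of each member (horizontal axes) with its standard error in 5 comparisons with combinations, filled where the adjusted p was under 0.05. EIF2AK3, XBP1, SYVN1 and HERPUD1 are filled and lie near or above 1 in N+PD30 against Nutlin and, apart from XBP1 at 0.82, against N+PD24.

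The 11 comparisons share libraries and include the interactions, where higher means positive, so the calls tallied here are not independent. Over these comparisons, HERPUD1 and SYVN1 were each called higher in 6 and lower in none. XBP1 was called higher in 4 and EIF2AK3 higher in 4 and lower in 2, while PDIA4 was higher in 3 and lower in 4. ATF6 was called in 1 comparison. The median log2 fold change over the 10 members, beside that over all genes tested, was 0.33 and -0.020 in PD30 against PD24, 0.49 and 0.0021 in N+PD30 against Nutlin, and 0.30 and -0.0058 in N+PD30 against PD30. It was 0.11 and 0.024 in PD24 against DMSO, 0.013 and 0.012 in N+PD24 against Nutlin, 0.14 and 0.030 in N+PD24 against PD24, and 0.29 and -0.011 in N+PD30 against N+PD24. In the order of the CPM levels, N+PD30 and PD30 were the highest 2 groups for ERN1, EIF2AK3, XBP1, SYVN1 and HERPUD1, and these neighbours overlapped for ERN1, EIF2AK3 and XBP1 but not for SYVN1 and HERPUD1. For PDIA4, Nutlin stood above DMSO without overlap and PD24 and PD30 overlapped at the bottom. For CALR, the 3 groups with Nutlin overlapped as neighbours above DMSO, PD24 and PD30, which overlapped among themselves.

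The genes whose profile over the 6 group means was most like a member's were found for the members that ranged by at least 1 on the scale of log2(CPM + 1). The measure was the root mean square difference of the centred profiles. For EIF2AK3 they were DUSP16 (0.116), MAP3K12 (0.131) and CBX7 (0.134). For SYVN1 they were DYRK1B (0.0481), STK19 (0.0586) and EVI5L (0.0619). HERPUD1 was most like TMEM129 (0.0729), MOGS (0.111) and CNNM2 (0.112).

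Other genes of the response were grouped into 6 lists, all of whose 78 genes were in the tables and tested. Of all genes tested, 26.6% were called higher and 28.0% lower in Nutlin against DMSO, and 22.9% and 25.4% in PD30 against DMSO. The shares for the other comparisons are those given with the members above. Counts near such shares do not set a list apart from the other genes. The 19 other ER chaperones and folding factors had 16 genes higher and none lower in Nutlin against DMSO, and a median log2 fold change of 0.50. HSPA5, the chaperone BiP, had 1101 ± 59.0 CPM in DMSO and 1565 ± 132 CPM in Nutlin and rose by 0.64 (edgeR adjusted p = 0.00057), and its co-chaperone DNAJB11 rose by 0.62 (edgeR adjusted p = 0.0018). With total scaling 15 of the 19 were called. In PD30 against DMSO 6 were higher, among them SIL1, a nucleotide exchange factor of BiP (0.97), and DNAJB9, a co-chaperone (0.60), and 2 were lower, among them HSP90B1, the ER form of HSP90 (-0.48). In PD24 against DMSO 2 were higher and 1, HSP90B1, was lower, and between PD30 and PD24 DNAJB9 was called higher and none lower. With the replicate block, which the paired numbers of PD30 and PD24 allow, 2 were higher and 2 lower, and without it the DNAJB9 call was lost without replicate 2 of PD24 or any 1 PD30 library.

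In N+PD30 against Nutlin 3 chaperones were higher and 6 lower, and HSP90B1 fell by 0.88 on the log2 scale (edgeR adjusted p = 0.00085). Against PD30, N+PD30 had 7 higher and none lower, but 0 to 10 when single libraries were left out. After removal of the inhibitor, Nutlin raised 13 of the 19 over PD24, with HSPA5 up by 0.52 (limma adjusted p = 0.0063), a count that fell to 6 with total scaling. In N+PD24 against Nutlin 1 was higher and 2 lower (3 and 4 with the replicate block), and in N+PD30 against N+PD24 none was higher and 3 lower. The direction of the latter depended on scaling: with total reads 1 was higher and none lower.

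The PERK branch list holds 10 genes downstream of EIF2AK3, several of which other kinases of eIF2α can also reach. In Nutlin against DMSO 1 was higher and 4 lower: TRIB3, a pseudokinase, fell by 2.02 on the log2 scale (edgeR adjusted p = 0.00011), the transcription factor ATF4 by 0.96 (edgeR adjusted p = 6.9e-05) and the transcription factor DDIT3, or CHOP, by 0.67 (edgeR adjusted p = 0.0011). In PD30 against DMSO 4 were higher and none lower, with CHAC1, a glutathione-degrading enzyme, up by 1.65 (edgeR adjusted p = 0.0040) and TRIB3 by 1.34 (edgeR adjusted p = 0.0033). In PD24 against DMSO 1 was higher and 4 lower, and in PD30 against PD24 5 were higher and none lower, including ATF4 (1.09, edgeR adjusted p = 0.00097).

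N+PD30 had 6 of these 10 genes higher and 1 lower against Nutlin, where 24.3% of all genes were higher and 24.7% lower. ATF4 was at 106 ± 5.27 CPM in Nutlin and 385 ± 80.4 CPM in N+PD30 (SD, n = 3) and rose by 1.81 (edgeR adjusted p = 4.3e-06). TRIB3 was at 10.5 ± 3.29 and 189 ± 101 CPM and rose by 4.13 (edgeR adjusted p = 1.3e-05), beside 1.06 for EIF2AK3. The interaction of Nutlin with PD30 was positive for 3 and negative for none: TRIB3 (2.83), ATF4 (1.37) and DDIT3 (1.03). Against N+PD24, N+PD30 had 5 higher and none lower. N+PD30 against PD30 gave 1 higher and 1 lower (6 and 2 with the replicate block), N+PD24 against Nutlin 1 and 2 (3 and 3 with the block), and N+PD24 against PD24 2 and 1 (4 and 3 with the block, but 1 and 3 with total scaling).

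Among the 19 other degradation genes, 9 were higher and 3 lower in PD30 against DMSO, where 22.9% of all genes were higher and 25.4% lower. The lectin ERLEC1 was at 92.3 ± 1.16 CPM in DMSO and 155 ± 8.75 CPM in PD30 and rose by 0.74 (edgeR adjusted p = 3.8e-05), and FAM8A1, a cofactor of HRD1, rose by 0.82 (edgeR adjusted p = 0.00014). Nutlin against DMSO gave 7 higher and 5 lower, with FAM8A1 down by 0.59, so that list was split where SEL1L and EDEM1 rose, and with total scaling it was 3 and 6. In N+PD30 against Nutlin 8 were higher and 1 lower, with FAM8A1 up by 1.02 (edgeR adjusted p = 0.0011) and SELS, a partner of the degradation channel, by 0.80 (edgeR adjusted p = 0.00039). The other counts of higher and lower genes were 3 and 0 in PD24 against DMSO, 3 and 0 in PD30 against PD24 (7 and 1 with the replicate block), 0 and 0 in N+PD30 against PD30 (2 and 1 with the block), 6 and 0 in N+PD24 against Nutlin, 4 and 0 in N+PD24 against PD24 (6 and 2 with the block), and 1 and 2 in N+PD30 against N+PD24. The direction of the last 2 depended on scaling: with total reads they were 2 and 3 in N+PD24 against PD24, and 3 and 0 in N+PD30 against N+PD24.

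Of the 15 genes for translocation into the ER, 7 were higher and 1 lower in PD24 against DMSO and 5 were higher and none lower in PD30 against DMSO. Among all genes tested, 17.5% were higher and 20.8% lower in PD24, and 22.9% and 25.4% in PD30. SEC61A1, the channel subunit, rose by 0.63 with Nutlin (edgeR adjusted p = 0.00014), in a list with 4 higher and 2 lower. The direction of that list turned with total scaling, to 2 higher and 4 lower. N+PD24 against Nutlin had 8 higher and none lower, with SRPRB, a subunit of the signal recognition particle receptor, up by 0.88 (limma adjusted p = 0.00093). The remaining counts were 1 and 0 in PD30 against PD24, 2 and 0 in N+PD30 against Nutlin, 2 and 1 in N+PD30 against PD30 (4 and 2 with the replicate block), 1 and 0 in N+PD24 against PD24 (5 and 0 with the block), and 0 and 2 in N+PD30 against N+PD24. In PD30 against PD24 the block gave 2 higher and 4 lower, so the balance of that list turned.

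The list of ATF6 proteases, relatives and NF-Y holds 9 genes, with 3 higher and 4 lower for Nutlin and 4 higher and 3 lower for PD30 against DMSO. Among all genes tested, 26.6% were higher and 28.0% lower for Nutlin, and 22.9% and 25.4% for PD30. NFYB, a subunit of the factor that binds CCAAT, was at 40.1 ± 4.22 CPM in DMSO and 20.6 ± 2.40 CPM in PD30 and fell by 0.98 (edgeR adjusted p = 0.00012), and NFYA fell by 0.72 (edgeR adjusted p = 5.6e-05), while MBTPS2, a protease that cuts ATF6, rose by 0.53 (edgeR adjusted p = 0.00044). The counts were 1 and 1 in PD24 against DMSO, 1 and 3 in PD30 against PD24, 3 and 2 in N+PD30 against Nutlin, 0 and 1 in N+PD30 against PD30, 4 and 1 in N+PD24 against Nutlin, 1 and 3 in N+PD24 against PD24 (4 and 3 with the replicate block, which turns the balance) and 0 and 4 in N+PD30 against N+PD24.

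Of the 6 IRE1 partners, 2 were higher and 3 lower with Nutlin (0 and 3 with total scaling) and 1 was higher and 2 lower with PD30 against DMSO. Over all genes the shares higher and lower were 26.6% and 28.0% with Nutlin, and 22.9% and 25.4% with PD30. TRAF2, an adaptor that binds activated IRE1, was at 36.3 ± 5.35 CPM in DMSO and 18.3 ± 1.61 CPM in PD30 and fell by 1.00 (edgeR adjusted p = 0.00024), while ERN1 rose in the same comparison. MAP3K5, the kinase ASK1, fell by 0.46 (edgeR adjusted p = 0.017). No partner was called in PD24 against DMSO, where edgeR called 1 lower with the replicate block. The counts were 0 and 2 in PD30 against PD24, 0 and 1 in each of N+PD30 against Nutlin, PD30 and N+PD24, 2 and 0 in N+PD24 against Nutlin, and 1 and 1 in N+PD24 against PD24 (0 and 3 with total scaling, 2 and 1 with the replicate block).

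The interaction of Nutlin with PD30 was called in a few genes of the remaining lists, 1 negative among the chaperones (CANX), 1 positive each among the degradation genes (SELS), the IRE1 partners (TRAF2) and the translocation genes (SRPRB), and 2 positive among the ATF6 relatives and NF-Y (CREB3 and NFYA). Among all genes tested, 12.8% had a positive and 7.03% a negative interaction. Each of the 6 calls in these lists was lost without at least 1 library. Of 12 fits that each left out 1 library, NFYA kept its call in 11 (lost without replicate 2 of Nutlin), TRAF2 in 8, CANX in 7 and SELS, SRPRB and CREB3 in 3 each. TRAF2 lost it without replicates 1 and 2 of DMSO and 1 and 3 of PD30, and CANX without replicates 1 and 3 of DMSO, 2 of Nutlin and 1 and 3 of PD30. TRIB3, ATF4 and DDIT3 of the PERK branch kept theirs in all 12. The interaction of Nutlin with PD24 was called by limma in none of the 6 lists, where the replicate block gave 2 in the PERK branch.

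**Figure D5:**
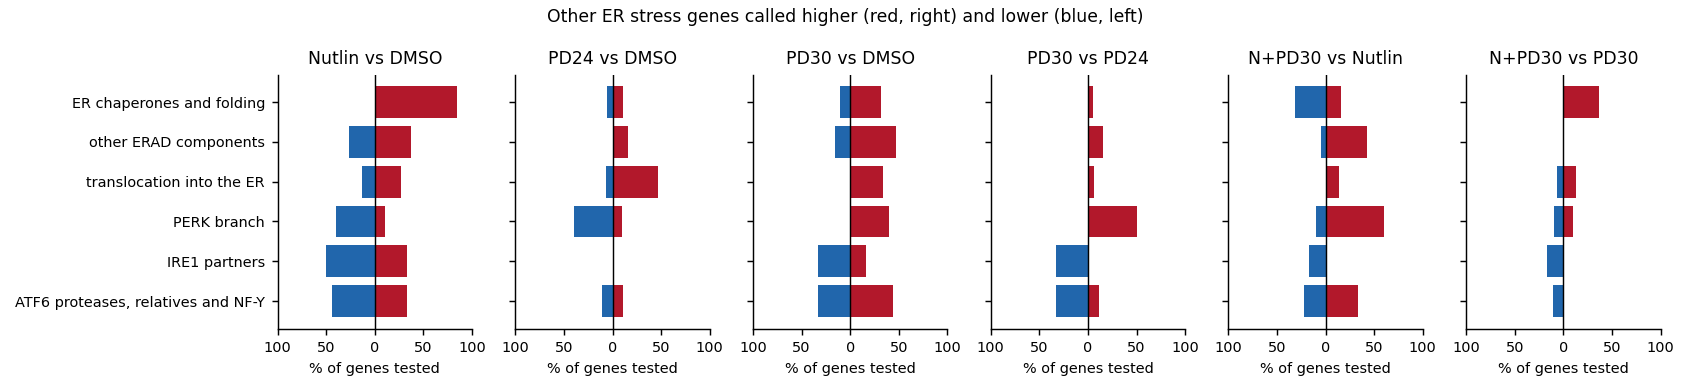
Percent of the tested genes of 6 lists (rows) called higher (red, to the right) and lower (blue, to the left) in 6 comparisons. Of all genes tested, 26.6% were higher and 28.0% lower in Nutlin against DMSO, and 24.3% and 24.7% in N+PD30 against Nutlin. The chaperones stand out in Nutlin against DMSO, with 16 of 19 genes higher, and the PERK branch changes side between Nutlin against DMSO (1 higher, 4 lower) and N+PD30 against Nutlin (6 higher, 1 lower), 2 comparisons that share the Nutlin libraries on opposite sides and are not independent.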

How the data were processed

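RNA of SJSA-1 cells was measured by single-end sequencing. According to the study and the submitters' processing notes, TopHat and Bowtie2 aligned the reads to hg19, and HTSeq 0.6.0, set to reverse strand, gave reads per gene. The authors deposited the values of 5 groups as counts (whole numbers whose totals differ between libraries, although the tables are named as variance-stabilized). The N+PD24 libraries were deposited as a normalized signal, the counts divided by 1 size factor per library. Divided by the step of 1 read, 100% of these values came out whole within 0.05 of a whole number, and the recovered reads served for an alternative test. The authors' tables of base means and their DESeq2 comparison (log2 fold changes, test statistics and p-values) were not used.

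Levels are CPM, counts per 1000000 of the library's own total. Groups came from the labels. Counts were tested with edgeR 4.0.16 (filterByExpr, TMM, quasi-likelihood test) on the 2 groups compared, or on 4 groups for the interaction. Comparisons with N+PD24 were tested with limma 3.58.1 on log2(CPM + 1) after TMM. The SE beside an edgeR value was derived from its test, as the absolute log2 fold change divided by the square root of the F statistic. For limma the SE was that of its moderated fit. P-values were adjusted by Benjamini-Hochberg over all genes tested, and genes were called at adjusted p under 0.05. The methods were tested on simulated data. R was version 4.3.3. The members and the lists of other genes were chosen with earlier results of these data known. All 10 members are named. Of each list, up to 3 called genes with the largest change per comparison could be named, and of the genes most like a member, the 3 nearest with a mean of at least 5 CPM. Transcript lengths and positions came from GENCODE 44 lifted to GRCh37, and promoters from RefSeq.

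The alternatives were DESeq2 1.42.0, no filter on low values, scaling by total reads, all groups in 1 fit, a replicate block, leaving out each library, a pseudocount of 0.1, edgeR on the recovered reads, and an added threshold of 1 on the absolute log2 fold change. Replicate numbers from the labels were taken to pair libraries where each same-numbered pair's deviations correlated above 0.1. This held for PD30 with PD24 (0.307 to 0.587), N+PD30 with PD30 (0.193 to 0.68), N+PD24 with Nutlin (0.412 to 0.647) and N+PD24 with PD24 (0.210 to 0.514), and not for the other 5 pairs of groups. The criterion did not compare same-numbered pairs with the others. In N+PD30 with PD30, replicate 1 of N+PD30 correlated more with replicate 2 of PD30 (0.4535).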

Additional observations from a re-analysis of the deposited data

Results flagged for a closer look

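A difference between the responses to Nutlin with and without PD0332991 for 30 h was called in 3 members. The test was that of the interaction itself (edgeR's quasi-likelihood test on 12 libraries, adjusted over all genes). Among all genes tested, 12.8% had a positive and 7.03% a negative interaction. Leaving out 1 library gave 0 to 4 members, and no member was called with all groups deposited as counts in 1 fit. The median interaction over all genes was 0.064 in the main fit and -0.0091 in the fit of all these groups. The difference was 0.61 ± 0.16 for XBP1 on the log2 scale (SE; edgeR adjusted p = 0.020), 0.47 ± 0.15 for SYVN1 (edgeR adjusted p = 0.044) and 0.49 ± 0.15 for HERPUD1 (edgeR adjusted p = 0.032). In each the value with the inhibitor was the higher. Over the alternatives run, the edgeR or DESeq2 adjusted p ranged from 0.0083 to 0.067 for XBP1, from 0.022 to 0.11 for SYVN1 and from 0.012 to 0.086 for HERPUD1. Samples far from the others of their group were not looked for, since each group has 3.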

How the results depend on the processing

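No member's called direction reversed under any alternative. Requiring a log2 fold change over 1 left 0 members in Nutlin, PD30 and PD24 against DMSO, in N+PD30 against PD30, in N+PD24 against Nutlin and PD24 and in the interaction of Nutlin with PD30, 1 in PD30 against PD24, and 2 in N+PD30 against Nutlin and against N+PD24. All groups in 1 fit gave 3 instead of 6 calls in Nutlin against DMSO and 0 instead of 3 in the interaction with PD30. In PD30 against PD24 the 3 calls became 7 with the replicate block and 5 with DESeq2. Scaling by total reads gave 2 instead of 4 in N+PD30 against PD30, and 1 instead of 2 in N+PD24 against Nutlin, as did no filter on low values, while the replicate block gave 4 there. Leaving out 1 library gave 3 to 5 calls in Nutlin against DMSO, 2 to 5 in PD30 against PD24, 0 to 4 in N+PD30 against PD30, 0 to 4 in the interaction with PD30, 1 to 2 in N+PD24 against Nutlin, 5 to 8 in N+PD30 against Nutlin and 4 to 5 in N+PD30 against N+PD24. It left 9 in PD30 and 2 in PD24 against DMSO unchanged. The cause of these moves was not tested. Where the numbers do not pair the samples, the replicate block gave 3 instead of 2 calls in PD24 against DMSO, 5 instead of 4 in N+PD30 against N+PD24 and the same count elsewhere. Of the single members' results, 1265 kept direction and side of the threshold, 75 lost and 30 gained a call.

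Counts over all genes moved by over 1.5 times with the replicate block in PD30 against PD24 (3816 to 6107), N+PD30 against PD30 (2183 to 4375), N+PD24 against Nutlin (5459 to 8443) and the interaction with PD24 (286 to 490), where a pseudocount of 0.1 gave 148 and edgeR on recovered reads 116. Leaving out 1 library moved them as far in 4 comparisons: PD30 against PD24 (2178 without replicate 1 and 2520 without replicate 3 of PD30), N+PD30 against PD30 (583, 1150 and 1064 without replicates 1, 2 and 3 of PD30, 625 and 3384 without replicates 2 and 3 of N+PD30), N+PD30 against N+PD24 (5000 to 3242 without replicate 2 of N+PD24 and 3220 without replicate 2 of N+PD30) and the interaction with PD24 (134 to 189 without any 1 DMSO library or replicate 2 of Nutlin or PD24). The shares of all genes given beside the members in these comparisons move with them. With all groups in 1 fit, 43.0% of the calls in N+PD30 against PD30 were higher. With 3 libraries a group, changes under about the size of the called ones can go unseen.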
